A study of Mus musculus with 6 samples.

Results

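The integrated stress response and the amino acid supply genes linked to it were followed in RNA sequencing data from the GC-1 spg line, immortalised mouse cells that derive from spermatogonia. The set holds 31 gene symbols, taken by name from a table of 57180 gene rows. They were found on 32 rows, because Ddit3 has a second row with exactly 1 count in every library, and the row with the most counts was used. The study compared 3 libraries labelled SNHG1 overexpression with 3 labelled vector control, all from the GC-1 spg line at 24 hours after transfection. SNHG1 makes a long non-coding RNA and carries small nucleolar RNAs in its introns. The labels also give non-obstructive azoospermia as the treatment of all 6 libraries and describe no such treatment of the cells. No source used here gives the transfected SNHG1 sequence or says whether replicates were separate cultures. The p-values therefore rest on a spread among libraries that may be technical.

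In the integrated stress response, kinases that sense stress or amino acid shortage phosphorylate the initiation factor eIF2, which lowers general translation and favours translation of the transcription factor ATF4. ATF4, often paired with C/EBP proteins, then raises genes for amino acid import, serine and asparagine synthesis and mitochondrial one-carbon metabolism, and its targets include the factors CHOP and ATF3 and feedback genes. Because ATF4 is controlled largely by translation, its mRNA level is an incomplete measure of the pathway. Spermatogonia divide rapidly and draw on one-carbon units for nucleotide synthesis.

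The libraries held 15521900 to 21095427 counts each. Levels are given as CPM, the count scaled by library size and TMM factor, on which 1 count stood for 0.0475 to 0.0645 CPM. Snhg1 itself did not separate the groups. Its CPM were 24.0, 26.4 and 25.3 in the libraries labelled overexpression and 22.1, 25.9 and 20.9 in the vector libraries, with a log2 fold change of 0.14 ± 0.10 (SE, n = 3 per group; edgeR, adjusted p = 0.52). For that reason the overexpression group is called the labelled libraries, and every direction rests on the labels. Labelled replicate 1 stood apart from the other replicates of its group on the second principal component (19.2% of the variance), at 30.0 against -8.9 and -13.7. Of 11 germ cell markers 6 had no counts, Ddx4 and Kit among them, and the 11 together took 1.94 to 3.03 CPM. The collagen gene Col1a2, a marker of mesenchymal cells, stood at 14674 CPM on average over the 6 libraries. Other mesenchymal markers were mixed. In the vector libraries Col1a1 stood at 5165, Pdgfra at 208, Acta2 at 8.4, Des at 2.26 and Myh11 at 0.174 CPM. The Sertoli marker Rhox5 averaged 564 CPM over the 6 libraries. Other Sertoli markers were mixed too. Wt1, Cldn11 and Fshr had no counts, and in the vector libraries Sox9 stood at 62.2, Gata4 at 6.29 and Amh at 0.638 CPM. The low germ cell markers went against the germ cell label, and no other cell type was assigned.

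The letters that ATF4 and C/EBP factors are known to bind together, the C/EBP-ATF response element, stand close to the start of several members. They are shown as a description of the members. The list was named for the pathway of ATF4, so a share above that of all symbols follows in part from the choice and is no test of it. The pattern TGATGNAAN was searched on both strands in windows of 300 bases, 250 before to 50 after each start, in RefSeq's GRCm38.p6 promoters. Of the 31 symbols, 27 had a window, and 9 of these (33.3%) held a match, against 4.5% of all 27025 symbols with a window. The stricter core TGATGCAA, which lies within that pattern, was in windows of 6 members (22.2%) against 1.03% of all symbols. Slc7a11 held 2 matches, 66 and 48 bases before its start and on opposite strands, and a pair of the stricter core occurred in only 2 of 32851 windows. The 250 bases before its start (chr3:50443614-50443863, minus strand) are printed 5′ to 3′ with the matches in capitals, followed by each other match with 10 bases on either side.
Slc7a11: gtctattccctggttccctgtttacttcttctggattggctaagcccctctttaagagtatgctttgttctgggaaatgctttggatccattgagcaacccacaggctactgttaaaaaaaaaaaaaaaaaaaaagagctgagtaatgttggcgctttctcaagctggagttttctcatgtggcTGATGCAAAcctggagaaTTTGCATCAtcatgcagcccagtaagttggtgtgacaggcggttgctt
Atf3, chr1:191183426-191183454, minus strand: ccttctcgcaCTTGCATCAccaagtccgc
Nupr1, chr7:126625563-126625591, minus strand: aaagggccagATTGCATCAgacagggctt
Chac1, chr2:119351038-119351066, plus strand: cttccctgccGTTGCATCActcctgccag
Vldlr, chr19:27216809-27216837, plus strand: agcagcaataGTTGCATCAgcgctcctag
Slc1a4, chr11:20332700-20332728, minus strand: tgcctcctgcGTTGCATCAtctccagcct
Asns, chr6:7693214-7693242, minus strand: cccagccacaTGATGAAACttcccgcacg
Pck2, chr14:55540152-55540180, plus strand: agccttcaaaGTTACATCAgtatcttaca
Trib3, chr2:152344029-152344057, minus strand: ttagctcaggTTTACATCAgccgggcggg
A match is a description of these letters and not a site of binding. Members with and without a match had the same median log2 fold change between the groups, 0.15 for the 8 tested members with a match (from -0.29 for Nupr1 to 0.67 for Slc7a11) and 0.15 for the 17 tested members with a window and no match (from -0.12 to 0.55).

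Slc7a11 and Shmt2 were the members that rose, by 1.60-fold and 1.35-fold, and no member fell. Slc7a11 encodes the light chain of the cystine and glutamate exchanger, and Shmt2 the mitochondrial enzyme that splits serine into glycine and a one-carbon unit. Of the 31 symbols, 29 passed the filter on low counts, and Vldlr and Cbs, with 2 counts each over all libraries, did not. The 2 increases were 6.90% of the 29, where edgeR called 1.54% of all 14605 tested genes higher, 0.856% lower and 2.40% in either direction. Limma-voom called 1 of the 29 (2.38% of all genes in either direction), and DESeq2 called 6 higher and 0 lower (2.46% of all genes higher). At an unadjusted p under 0.05, 10 members were higher and 1 was lower, against 8.26% of all genes higher and 8.71% lower. The groups did not overlap for 8 members that were higher (27.6%, against 11.4% of all genes) and for 1 that was lower (3.45%, against 12.3%). The log2 fold change was above 0 for 24 of the 29 (82.8%, against 51.3% of all genes), with a median of 0.15 against 0.01 over all genes. These members were listed with earlier results of these data in view, so the shares describe the list and are no test of it.

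**Figure D1:**
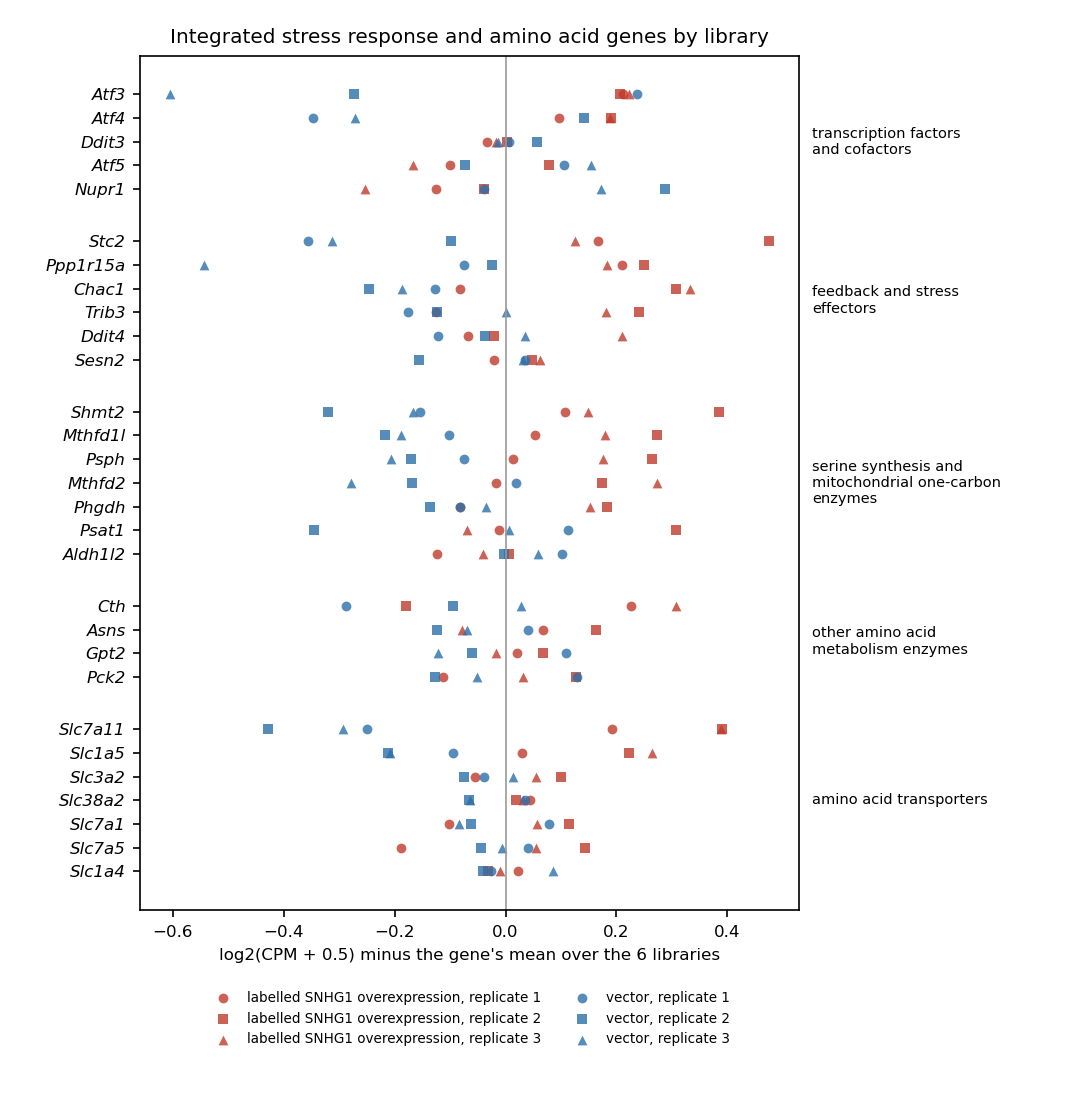
Each row is a tested member and each point a library, as log2(CPM + 0.5) minus the gene's mean over the 6 libraries, with labelled libraries in red, vector libraries in blue and the replicate given by the marker shape. Slc7a11, Shmt2, Mthfd1l, Slc1a5, Psph, Stc2, Ppp1r15a and Chac1 show all 3 red points to the right of all 3 blue points. Ddit3, Slc1a4 and Slc38a2 show the narrowest spread.

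Of the transcription factors of the response 0 of 5 passed edgeR, DESeq2 or limma-voom. An unadjusted p under 0.05 was reached by 2 of them (edgeR, 40.0%, against 17.0% of all genes). Atf4, the central factor, stood at 227, 243 and 242 CPM in the labelled libraries and at 167, 235 and 176 CPM in the vector libraries. Vector replicate 2 reached the labelled range, and the other 2 vector libraries lay below it. The log2 fold change of Atf4 was 0.30 ± 0.12 (SE, n = 3 per group; edgeR, adjusted p = 0.259). Without vector control replicate 2 it was 0.46 and passed (edgeR, adjusted p = 0.0337). Across the 16 alternatives that p lay between 0.0337 and 0.495.

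Ddit3, which encodes the pro-apoptotic factor CHOP, was the steadiest member. Its CPM were 27.2, 27.9 and 27.6 in the labelled libraries and 28.0, 29 and 27.6 in the vector libraries. The groups overlapped, with 2 vector libraries above all labelled libraries by little, and it had a log2 fold change of -0.03 and a 95% interval of -0.19 to 0.12. Atf3, a stress-induced factor related to ATF4, was scarce. It had 39, 42 and 39 counts in the labelled libraries and 43, 20 and 17 in the vector libraries, so that vector replicate 1 lay with the labelled libraries in CPM (2.05 against 2.00, 2.00 and 2.02). Its interval, -0.19 to 1.15 on the log2 scale, was the only one among the 29 that reached a 2-fold change. The log2 fold change of Atf3, 0.48, was 0.86 without vector control replicate 1 and 0.24 without vector control replicate 3.

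Nupr1, a small stress-induced chromatin protein that acts with ATF4, was the single member placed lower at an unadjusted p under 0.05. It stood at 19.2, 20.4 and 17.5 CPM against 20.4, 25.7 and 23.7 CPM, and labelled replicate 2 and vector replicate 1 were equal to 3 digits. Its log2 fold change was -0.29 ± 0.11 (SE, n = 3 per group; edgeR, adjusted p = 0.241). Atf5, a factor of the mitochondrial stress response, had a log2 fold change of -0.12 ± 0.09 (SE), with CPM of 159 to 198. On the deposited coordinates Atf5 overlaps Nup62 and Ddit3 overlaps Mars1, and the strand setting of the counting is not given, so reads of such pairs may not be fully told apart.

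**Figure D2:**
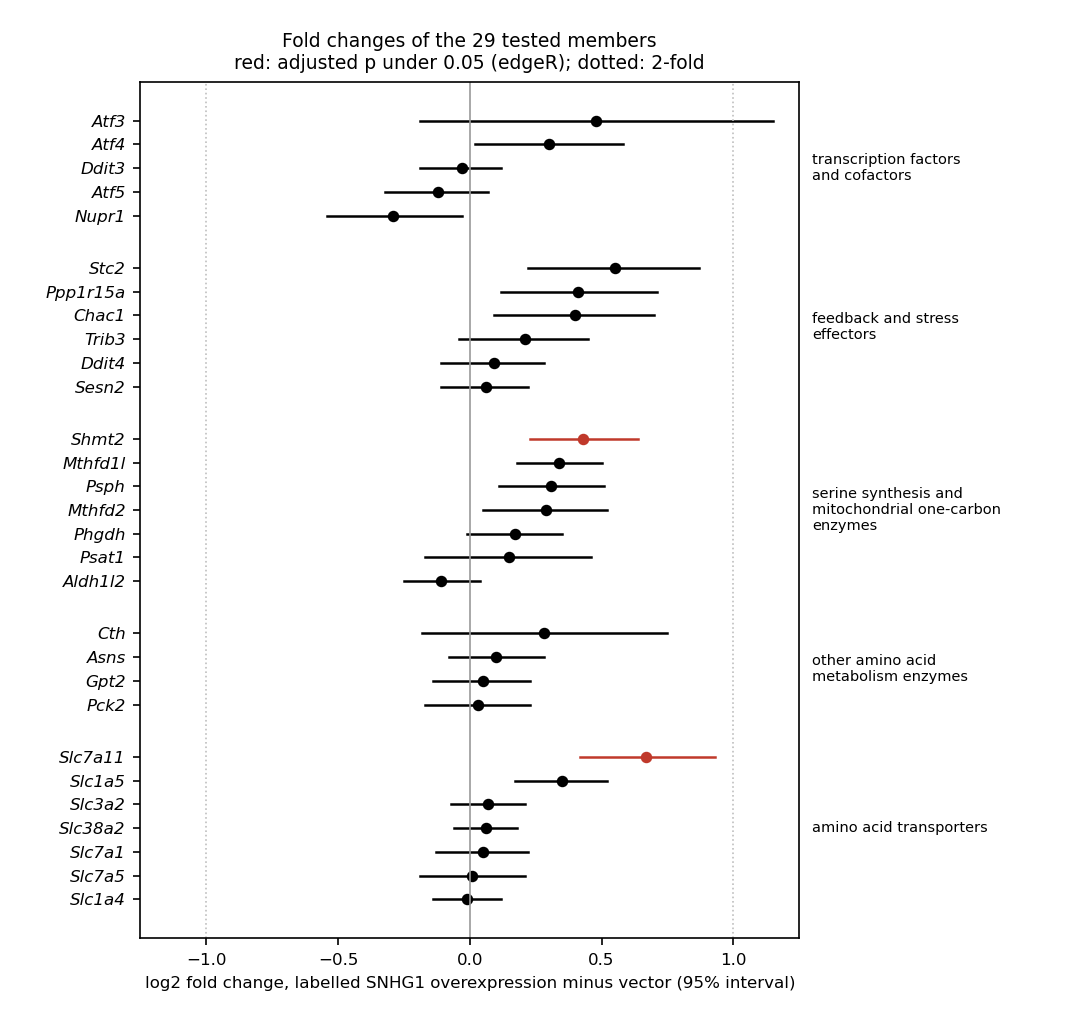
Points are log2 fold changes of the 29 tested members, labelled minus vector, with 95% intervals from the edgeR fit, and dotted lines mark a 2-fold change. Slc7a11 (0.67) and Shmt2 (0.43), in red, passed at an adjusted p under 0.05, and the interval of Atf3 alone crosses a dotted line.

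Among feedback genes and stress effectors 0 of 6 tested members passed edgeR or limma-voom. Of the 6, 3 had an unadjusted p under 0.05, all higher (edgeR, against 8.26% of all genes higher). DESeq2 called 2 of the 6 higher, where it called 2.46% of all genes higher. Ppp1r15a, which encodes GADD34, the subunit that directs phosphatase to eIF2, stood at 69.5, 71.4 and 68.1 CPM in the labelled libraries and at 56.9, 59.0 and 41.0 CPM in the vector libraries. The labelled libraries were close together and all above the vector libraries, of which replicate 3 was lowest. Its log2 fold change was 0.41 ± 0.13 (SE; edgeR, adjusted p = 0.158, DESeq2, adjusted p = 0.0318). Stc2, the secreted glycoprotein stanniocalcin 2, had 10.5, 13.1 and 10.2 CPM against 7.15, 8.65 and 7.38 CPM. Its groups did not overlap, and the log2 fold change was 0.55 ± 0.14 (SE; edgeR, adjusted p = 0.101, DESeq2, adjusted p = 0.0454).

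Chac1 encodes an enzyme that degrades glutathione and is a well-known target of the ATF4 and CHOP branch. Its CPM were 12.6, 16.7 and 17.0 in the labelled libraries and 12.2, 11.2 and 11.7 in the vector libraries. Labelled replicate 1 lay just above the vector libraries, and the other 2 labelled libraries stood clear of them. The log2 fold change was 0.40 ± 0.13 (SE, edgeR, adjusted p = 0.186), and without SNHG1 overexpression replicate 1 it was 0.52 and passed (edgeR, adjusted p = 0.0321). That was the only 1 of the 16 alternatives in which Chac1 passed. Over them its log2 fold change ran from 0.29 to 0.52 and its adjusted p from 0.0321 to 0.445. Trib3, a pseudokinase that restrains ATF4 and CHOP, stood at 35.7, 46.1 and 44.3 CPM against 34.4, 35.8 and 39.0 CPM. Labelled replicate 1 of Trib3 fell within the vector range, and the log2 fold change was 0.21 ± 0.11 (SE; edgeR, adjusted p = 0.36). Sesn2 and Ddit4, whose products restrain the growth kinase mTORC1, had log2 fold changes of 0.06 ± 0.07 and 0.09 ± 0.08 (SE), with CPM of 57.2 to 66.6 and 145 to 182 over the 6 libraries.

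The serine and one-carbon enzymes held 1 of the 2 increases, with 4 of 7 members at an unadjusted p under 0.05, all higher (57.1%, against 8.26% of all genes higher), and 2 called by DESeq2 (2.46% of all genes higher). In the first step of serine synthesis, Phgdh stood at 215, 259 and 253 CPM in the labelled libraries and at 215, 207 and 222 CPM in the vector libraries. Psat1, the second enzyme, stood at 258, 322 and 248 CPM against 281, 205 and 262 CPM. Both genes overlapped between groups, with log2 fold changes of 0.17 ± 0.08 and 0.15 ± 0.14 (SE; edgeR, adjusted p = 0.31 and 0.61). Psph, which completes the pathway, had 31.8, 37.9 and 35.6 CPM against 29.8, 27.9 and 27.2 CPM. Its groups did not overlap, and the log2 fold change was 0.31 ± 0.09 (SE; edgeR, adjusted p = 0.124). Without SNHG1 overexpression replicate 1, Phgdh passed at 0.25 and Psph at 0.37 (edgeR, adjusted p = 0.0441 and 0.0446). That fit called 807 genes in all, against 350 in the main fit. Phgdh and Psph each passed in only 1 of the 16 alternatives, over which the adjusted p reached 0.624 and 0.35. Psph, with 3660 counts over the 6 libraries, overlaps Cct6a, with 39378, on the deposited coordinates. Aldh1l2 likewise overlaps Nopchap1.

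Shmt2 (ENSMUSG00000025403, chromosome 10, 127352992 to 127358313 as deposited, build not named) feeds the mitochondrial one-carbon pathway. It had 85.1, 103 and 87.6 CPM in the labelled libraries and 70.9, 63.2 and 70.3 CPM in the vector libraries. Every labelled library was above every vector library, and the log2 fold change was 0.43 ± 0.09 (SE, n = 3 per group; edgeR, adjusted p = 0.0492). That call sat at the threshold: it was lost in 11 of 16 alternatives, with adjusted p from 0.00157 to 0.188. Without SNHG1 overexpression replicate 1 Shmt2 passed (edgeR, adjusted p = 0.0339), and without each other library in turn it did not.

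Downstream of Shmt2, Mthfd2 oxidises the one-carbon unit and Mthfd1l releases it as formate. Mthfd1l stood at 116, 135 and 127 CPM in the labelled libraries and at 104, 96.1 and 98.0 CPM in the vector libraries. The groups did not overlap, with a log2 fold change of 0.34 ± 0.07 (SE; edgeR, adjusted p = 0.0522), and Mthfd1l passed with DESeq2 (adjusted p = 0.00591). Mthfd2 stood at 52.0, 59.4 and 63.6 CPM against 53.3, 46.7 and 43.3 CPM, where vector replicate 1 was above labelled replicate 1. Its log2 fold change was 0.29 ± 0.10 (SE; edgeR, adjusted p = 0.208). Aldh1l2, a mitochondrial enzyme that instead oxidises the unit to carbon dioxide, had a log2 fold change of -0.11 ± 0.06 (SE; edgeR, adjusted p = 0.431), with CPM of 54.1 to 63.3.

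Of the other amino acid enzymes 0 of 4 tested members passed (edgeR, 0 at an unadjusted p under 0.05, and 0 by DESeq2 or limma-voom), and all 4 overlapped between groups. Asns, asparagine synthetase and a standard readout of ATF4, stood at 135, 144 and 122 CPM in the labelled libraries and at 132, 118 and 123 CPM in the vector libraries. The log2 fold change of Asns was 0.10, with a 95% interval of -0.08 to 0.28. The alanine aminotransferase Gpt2 and the mitochondrial phosphoenolpyruvate carboxykinase Pck2 were at 0.05 ± 0.08 and 0.03 ± 0.09 on the log2 scale (SE), with CPM of 34.3 to 40.3 and 79.5 to 95. In the transsulfuration pathway, which makes cysteine from methionine, Cth had 45 to 77 counts per library and a log2 fold change of 0.28 ± 0.20 (SE), and Cbs had 2 counts in labelled replicate 3 and 0 elsewhere.

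The amino acid transporters divided into Slc7a11, Slc1a5 and a flat remainder. Slc7a11 (ENSMUSG00000027737, chromosome 3, 49846975 to 50398063 as deposited, build not named) had 258, 322 and 294 counts in the labelled libraries and 202, 131 and 172 in the vector libraries. That is 13.3, 15.3 and 15.3 CPM against 9.62, 8.45 and 9.34 CPM, with a clear gap between the groups. The log2 fold change was 0.67 ± 0.11 (SE, n = 3 per group; edgeR, adjusted p = 0.0203). It passed without SNHG1 overexpression replicate 1 (0.74, adjusted p = 0.0156) and missed the threshold without each other library in turn (0.62 to 0.71, edgeR, adjusted p = 0.0722 to 0.0862), over all alternatives in a range of 0.000679 to 0.0862. Across genes, fold changes in this comparison were higher at higher GC content (Spearman rho 0.29 over 14235 genes, which are not independent). Slc7a11 has a GC content of 40.7% and Shmt2 of 57.4%. With GC and length trends removed they were at 0.83 and 0.35 on the log2 scale, and both passed (edgeR, adjusted p = 0.0163 and 0.0497). In that fit the median log2 fold change of the 29 members was 0.12, against 0.15 in the main fit, and Atf4 was at 0.23, against 0.30.

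Slc1a5, the glutamine transporter ASCT2, stood at 149, 170 and 175 CPM in the labelled libraries and at 137, 126 and 126 CPM in the vector libraries. The groups did not overlap, and the log2 fold change was 0.35 ± 0.08 (SE; edgeR, adjusted p = 0.0599, DESeq2, adjusted p = 0.0052). Slc3a2 encodes the heavy chain that pairs with both the Slc7a11 and the Slc7a5 light chains. It stood at 193, 215 and 208 CPM against 195, 190 and 202 CPM, with a log2 fold change of 0.07 and a 95% interval of -0.07 to 0.21. Slc3a2 is also the nearest member to Snhg1, since 68 bases separate the genes on chromosome 19 on the deposited coordinates, and neither passed.

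Slc7a5, the leucine transporter LAT1, had 180, 227 and 213 CPM in the labelled libraries and 211, 199 and 205 CPM in the vector libraries. The labelled range enclosed the vector range, and the log2 fold change was 0.01 with a 95% interval of -0.19 to 0.21. Slc7a1, which imports arginine and lysine, Slc1a4, which carries small neutral amino acids, and Slc38a2, a glutamine and alanine carrier induced by amino acid shortage, were at 0.05 ± 0.08, -0.01 ± 0.06 and 0.06 ± 0.05 on the log2 scale (SE). Over the 6 libraries their CPM ran from 147 to 171, from 98.9 to 108 and from 397 to 429. Of the 29 intervals, 22 lay within a 1.5-fold change in either direction and 28 within a 2-fold change.

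**Figure D3:**
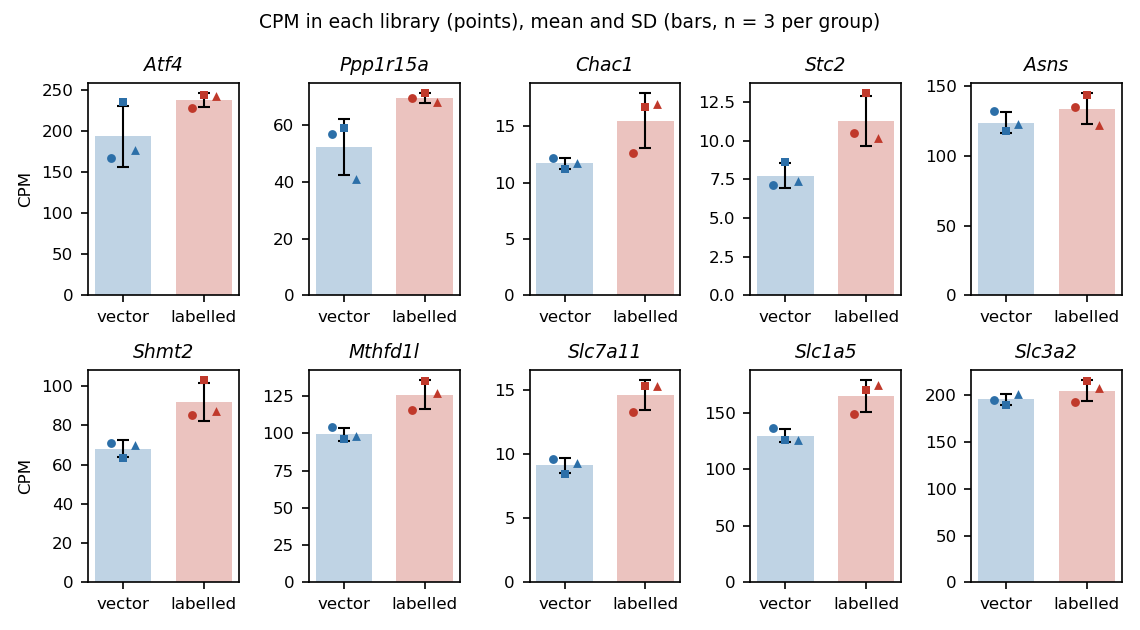
CPM of 10 members in each library (points, with the replicate given by the marker shape), with the mean as a bar and the SD as an error bar (n = 3 per group). Ppp1r15a, Chac1, Stc2, Shmt2, Mthfd1l, Slc7a11 and Slc1a5 separate the groups. Asns and Slc3a2 overlap, and 1 vector library of Atf4 lies at 235 CPM with the labelled libraries.

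The members differed widely in level. Per kilobase of the longest GENCODE M21 transcript, the highest in the vector libraries were Phgdh at 114 ± 3.94, Atf5 at 103 ± 8.32, Atf4 at 95.4 ± 18.2, Psat1 at 95.3 ± 15.2 and Ddit4 at 87.3 ± 4.72 CPM per kilobase (SD, n = 3). Phgdh was above Atf5 by more than the SD of either, and from Atf5 to Ddit4 each differed from the next by less than the larger SD. At the low end of the 29 tested members were Stc2 at 1.94 ± 0.203, Cth at 1.58 ± 0.201, Slc7a11 at 0.991 ± 0.0661 and Atf3 at 0.716 ± 0.289 CPM per kilobase (SD, n = 3), and Slc7a11 and Atf3 did not differ beyond their spread. The exchanger chain that rose was therefore near the bottom of the list, and its partner chain Slc3a2, at 69.6 ± 2.15 CPM per kilobase, near the top.

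The libraries of a group did not carry the members evenly. Labelled replicate 2 was above the gene's own 6-library mean for 25 of 29 members, labelled replicate 3 for 21 and labelled replicate 1 for 14. Vector replicate 1 was above it for 13, vector replicate 3 for 10 and vector replicate 2 for 3. The median deviations were -0.01, 0.16 and 0.12 on the log2 scale in labelled replicates 1, 2 and 3 and -0.04, -0.10 and -0.06 in the vector replicates. Labelled replicate 1 and vector replicate 1 were nearly level for these genes, labelled replicates 2 and 3 were the highest and vector replicate 2 the lowest. The median over all tested genes was 0.00 in every library, and total counts were 21058425 in labelled replicate 2, 15521900 in vector replicate 2 and 21095427 in vector replicate 1. The part of depth or of labelled replicate 1 in the members' values was not tested beyond leaving each library out. The median SD within groups was 0.12 on the log2 scale, for the 29 members as for all tested genes, from 0.03 for Ddit3 to 0.30 for Atf3.

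Neighbouring parts of the pathway were followed in 7 further lists of 124 genes, of which 116 were tested. Not one of the 116 passed edgeR, 25 had an unadjusted p under 0.05 (21.6%, against 17.0% of all genes), DESeq2 called 6 (4.42% of all genes) and limma-voom 0. Upstream, 0 of 15 genes for eIF2 kinases, eIF2 and its exchange factor eIF2B passed edgeR or limma-voom. DESeq2 called 1, Eif2b2 (adjusted p = 0.0424), whose groups did not overlap. An unadjusted p under 0.05 was reached by 1 (edgeR, 6.67%, against 17.0% of all genes), and the median log2 fold change was 0.05. The stress kinases Eif2ak1, Eif2ak2, Eif2ak3 and Eif2ak4 lay between -0.06 and 0.06. The exchange factor subunits Eif2b2 and Eif2b5 had log2 fold changes of 0.29 ± 0.07 and 0.15 ± 0.07 and the eIF2 subunit Eif2s1 of -0.10 ± 0.05 (SE; edgeR, adjusted p = 0.0755, 0.295 and 0.383).

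The cytosolic aminoacyl-tRNA synthetases, many of them ATF4 targets, were above 0 in 18 of 20 cases (90%, against 51.3% of all genes), with a median log2 fold change of 0.13. None of the 20 passed (edgeR, 5 at an unadjusted p under 0.05, all higher, or 25.0% against 8.26% of all genes, 1 by DESeq2 and 0 by limma-voom). Cars, Vars and Kars, which charge tRNAs with cysteine, valine and lysine, had log2 fold changes of 0.26 ± 0.07, 0.28 ± 0.08 and 0.18 ± 0.05 (SE; edgeR, adjusted p = 0.107, 0.125 and 0.132). Of 17 other tested ATF4-linked genes 0 passed edgeR or limma-voom and 2 passed DESeq2, with a median log2 fold change of 0.05. An unadjusted p under 0.05 was reached by 5, all higher (edgeR, 29.4%, against 8.26% of all genes higher). Among them Cebpb, a C/EBP partner of ATF4, stood at 376 ± 50.3 against 257 ± 31.5 CPM (SD, n = 3; edgeR, adjusted p = 0.0567, DESeq2, adjusted p = 0.000147). Bcat1, the cytosolic branched-chain aminotransferase, and the tRNA exporter Xpot were at 0.37 ± 0.10 and 0.17 ± 0.06 on the log2 scale (SE; edgeR, adjusted p = 0.118 and 0.196).

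The branches of the unfolded protein response that run through ATF6 and XBP1 had a median log2 fold change of 0.00. Of their 19 genes 0 passed edgeR or limma-voom and 1 passed DESeq2. An unadjusted p under 0.05 was reached by 2 (edgeR, 10.5%, against 17.0% of all genes). The chaperone Hsp90b1 had the smallest p and was on the lower side, at 1060 ± 49 against 1261 ± 46.2 CPM (SD, n = 3; edgeR, adjusted p = 0.0618), whereas the chaperone Hspa5 was at 0.12 ± 0.05 and the disulfide isomerase Pdia4 at -0.09 ± 0.05 on the log2 scale (SE; edgeR, adjusted p = 0.265 and 0.374). Of 14 other tested folate, methionine and glycine genes 0 passed edgeR, DESeq2 or limma-voom, and their median was 0.01. An unadjusted p under 0.05 was reached by 2 (edgeR, 14.3%, against 17.0% of all genes). Aldh1l1, Mthfd1 and Shmt1, cytosolic counterparts of the mitochondrial enzymes, were at 0.41 ± 0.13, 0.19 ± 0.07 and 0.20 ± 0.10 on the log2 scale (SE; edgeR, adjusted p = 0.164, 0.249 and 0.331).

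Other amino acid transporters had 0 of 13 tested genes that passed edgeR, DESeq2 or limma-voom. An unadjusted p under 0.05 was reached by 4 (edgeR, 30.8%, against 17.0% of all genes), of which 3 were lower. The lysosomal Slc38a9 was at -0.23 ± 0.09, Slc38a6 at -0.25 ± 0.10 and Slc36a4 at -0.21 ± 0.06 on the log2 scale (SE; edgeR, adjusted p = 0.241, 0.267 and 0.15). The oxidative stress factor NRF2 also drives Slc7a11, so a list of 18 of its genes was set beside the members. None passed edgeR or limma-voom and 1 passed DESeq2, with a median log2 fold change of 0.11. An unadjusted p under 0.05 was reached by 6 (edgeR, 33.3%, against 17.0% of all genes). Of these 5 were higher and 1, the ferritin light chain Ftl1, was lower, at -0.28 ± 0.11 (SE). The ferritin heavy chain Fth1 was at 0.35 ± 0.10, Pgd at 0.27 ± 0.09 and Taldo1, like Pgd an enzyme of the pentose phosphate pathway, at 0.22 ± 0.07 (SE; edgeR, adjusted p = 0.144, 0.173 and 0.188).

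**Figure D4:**
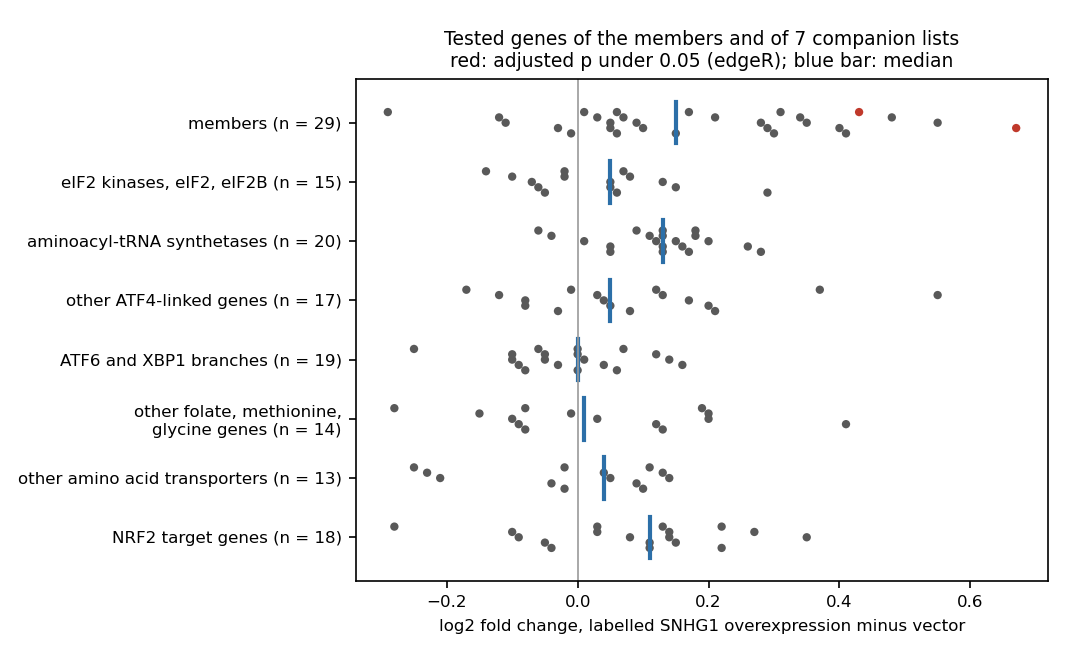
Each point is the log2 fold change of 1 tested gene, labelled minus vector, for the 29 tested members and 7 companion lists, and blue bars are list medians. The medians are 0.15 for the members, 0.13 for the aminoacyl-tRNA synthetases and 0.00 for the ATF6 and XBP1 branches, and the red points, Slc7a11 and Shmt2, are the genes with an adjusted p under 0.05.

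Markers of other cell types were summed beside the members. The 7 macrophage markers together took 42.0 to 48.2 CPM in the labelled and 33.7 to 34.5 CPM in the vector libraries. Their main contributor, Cd14, rose, at 24.4 against 14.4 CPM on average (edgeR, adjusted p = 0.00728). Lyz2 was level at 15.3 against 15.4 CPM, Cd68 was at 3.83 against 2.47 and Csf1r at 1.04 against 1.43 CPM, and none of these passed. Ptprc, Adgre1 and Itgam had only 25, 28 and 6 counts over the 6 libraries and were not tested. The 6 mesenchymal markers, none at 0, took 17578 to 18311 against 20816 to 22149 CPM. Collagens made up most of that sum: Col1a2 fell, at 13175 against 16173 CPM on average (edgeR, adjusted p = 0.00797), and Col1a1 was at 4511 against 5165 CPM (adjusted p = 0.15). Pdgfra, a receptor on the same list, rose, at 288 against 208 CPM (edgeR, adjusted p = 0.0143). The 7 Sertoli markers, of which Wt1, Cldn11 and Fshr were at 0, took 606 to 704 against 582 to 617 CPM. Rhox5 made up most of that sum, at 594 against 533 CPM on average. Markers of Leydig cells, of which 4 of 6 had no counts, took 2.28 to 3.01 against 2.33 to 2.84 CPM, and those of endothelium, with Kdr at 0, 0.976 to 1.66 against 1.10 to 1.23 CPM. In bulk RNA a change in the share of a cell type and a change per cell cannot be told apart, and the part of such cells in the members' values was not tested.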

How the data were processed

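RNA was poly(A)-selected and sequenced as stranded paired-end libraries, per the labels' protocols. The authors deposited 1 table with whole-number counts and FPKM values per library. HISAT2, SAMtools 1.3.1 and StringTie and the human build GRCh38 are named in the submitters' processing notes, although gene rows have mouse Ensembl IDs. How reads were counted, with which strand option, and which build the coordinates follow were not given in the sources used here. The deposited FPKM values were not used for levels, because the gene length they imply exceeded the union of the exons by over 1% for 28 members. Groups came from the titles.

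Counts were tested with edgeR 4.0.16 (quasi-likelihood F test, TMM, filterByExpr) in R 4.3.3 over all 14605 genes that passed the filter, with Benjamini-Hochberg adjustment at 0.05. The alternatives used DESeq2 1.42.0, limma 3.58.1 (voom), other scaling and filters, robust dispersions, a replicate block, removal of GC and length trends (lowess with a span of 0.3, GENCODE M21 transcripts, 97.5% of tested genes) and each library left out. The fit was checked on simulated data. Values in every library are given for members that passed, had an unadjusted p under 0.05 or did not overlap, and for a fixed set of core genes, and each companion list is given by its members that passed or its 3 smallest p-values. Members and lists were chosen with earlier results of these data known. Marker sums were computed for 6 cell types. Intervals and counts cover no PCR duplication.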

Additional observations from a re-analysis of the deposited data

How the results depend on the processing

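Against 2 members that rose, the count was 1 with median-of-ratios size factors, with no filter, with a filter of 1 CPM in 3 libraries and with limma-voom, 4 with robust dispersions and 6 with DESeq2. It was 0 with the replicate block, alone or with GC and length trends removed, and ran from 0 to 7 when 1 library was dropped. It was 7 without SNHG1 overexpression replicate 1, where 807 genes changed in all. It was 1 without vector control replicate 2 (151 genes in all) and 0 without any of the other 4 (123 to 176). That 1 was Atf4, and Slc7a11 and Shmt2 missed the threshold in that fit (edgeR, adjusted p = 0.0862 and 0.188). The 7 were Slc7a11, Shmt2, Mthfd1l, Slc1a5, Chac1, Phgdh and Psph. Such fits have fewer samples; why the count reached 7 was not tested. No member was called lower in any of the 16 alternatives. Against 350 changed genes in all, DESeq2 called 646, the replicate block 163 and the block with GC and length trends removed 190, and leaving out 1 library gave 123 to 807. Replicate numbers are shared between the groups in the labels, which do not say whether they mark pairs. Deviations of same-numbered libraries had correlations of 0.00, -0.03 and -0.01, against -0.02 to 0.02 for libraries with different numbers. With 3 libraries per group these values cannot decide whether the libraries were paired. With the block Slc7a11 had an adjusted p of 0.0777 and Shmt2 of 0.134 (edgeR). Of 464 member values under alternatives, 417 kept direction and side of the threshold, 18 lost the call, 13 gained it and 16, all near 0, changed sign. Sesn2 was at -0.01 with GC and length trends removed, with or without the block, and without vector control replicate 2. Ddit4 was at -0.003 with GC and length trends removed and without SNHG1 overexpression replicate 3, and at -0.01 with the block added to the GC and length removal. Slc7a5 was at -0.05 and, with the block, -0.06 after GC and length removal, at -0.06 and -0.01 without SNHG1 overexpression replicates 2 and 3 and at -0.01 without vector control replicate 2. Pck2 was at -0.03 without SNHG1 overexpression replicate 2 and without vector control replicate 2, Slc7a1 at -0.0004 without SNHG1 overexpression replicate 2, and without vector control replicate 3 Gpt2 was at -0.01 and Slc1a4 at 0.02. Over the fits that leave out 1 library the highest values were 0.09 for Sesn2, 0.14 for Ddit4, 0.11 for Gpt2, 0.10 for Pck2, 0.10 for Slc7a5 and 0.11 for Slc7a1, and the lowest for Slc1a4 was -0.04. Atf3 and Cth, with 200 and 363 counts over the 6 libraries, had the fewest counts of the tested members, and Vldlr and Cbs, with 2 each, did not pass the filter.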
